A study of Caenorhabditis elegans with 6 samples.

Results

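The genes described here make the machinery that marks proteins with ubiquitin and degrades them. They were taken by their symbols, as all probe sets whose gene symbol in the deposited tables of the comparisons of baicalein with DMSO or of DMSO with water begins with pas-, pbs-, rpn-, rpt-, uba-, ubc-, cul-, skr-, fbxa-, fbxb-, fbxc-, math-, bath-, usp-, ufd- or csn-. This gave 68 genes with 1 probe set each, of 29317 probe sets on the array and of 4956 with a name. They were 2 subunits of the 20S proteasome core (*pas-4* and *pas-6*), 4 subunits of the 19S regulatory particle (*rpn-1*, *rpn-3*, *rpn-5* and *rpn-6.1*), 2 conjugating enzymes (*ubc-12* and *ubc-25*), 9 genes of cullins, Skp1-related proteins and the COP9 signalosome, 4 ubiquitin proteases or UFD proteins, and 47 substrate adaptors with an F-box or a MATH domain. No gene with the prefix pbs-, rpt- or uba- was named in either table.

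Whole *Caenorhabditis elegans* of the wild-type strain N2 were compared after 48 h at 20 °C in liquid medium with 100 µM baicalein dissolved in DMSO, with 0.4% DMSO, or with water. Baicalein is a flavone of plants, and DMSO is the solvent in which it was given. The RNA was measured on Gene 1.1 ST arrays of Affymetrix for *C. elegans*, 2 per group and numbered as trials 1 and 2, and the values are RMA values on a log2 scale. All groups were labelled as young adults 3 days after hatching, and no allele or transgene was involved.

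In eukaryotic cells an E1 enzyme activates ubiquitin, an E2 enzyme carries it, and an E3 ligase brings the E2 to the protein to be marked. Cullin-RING ligases are the largest family of E3 ligases. In the SCF type a Skp1 protein joins the cullin CUL-1 to an F-box protein that holds the substrate, whereas CUL-3 binds BTB proteins directly, among them those with a MATH domain. Cullins are switched on by the ubiquitin-like protein NED-8 and switched off by the COP9 signalosome, which removes it. Chains of ubiquitin are read and removed by the 19S particle, which feeds the protein into the 20S core, and ubiquitin proteases take ubiquitin off again. The nematode genome holds very large families of F-box, MATH and BTB genes and many Skp1 copies, and in the worm these ligases are best known for their work in the oocyte-to-embryo transition and in cell division.

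The paper describes an analysis of variance with a threshold of p at 0.05 or less. A table is taken to list a gene only where the authors' unadjusted p met that threshold in that comparison. Of the 68 genes, 47 were named by the table of baicalein against DMSO alone, 20 by that of DMSO against water alone, and 1 (*fbxc-48*) by both. A count or median over them is therefore a description in the comparison that named them, and nothing is read from it. Both comparisons use the same DMSO arrays, so that a DMSO array that reads high raises a gene against water and lowers baicalein against it. The listing differs from the p-values of limma, the test used below. Its unadjusted p was under 0.05 in the naming comparison for 36 of the 47 genes and 8 of the 20. Between DMSO and water it was 1.6e-07 for *fbxa-157* and 8.0e-07 for *skr-2*, which that table did not name. The reason for these differences was not tested.

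The arrays had medians between 1.42 and 1.59. Their upper quartiles were 2.737 and 2.464 with baicalein, 3.005 and 2.778 with DMSO and 3.231 and 3.257 with water. The deposited values therefore do not share 1 distribution, and their spread differs by group. The median of all values, 1.51, is taken as the level of little signal. Of the 68 genes, 25 were above it on all 6 arrays and 19 on none. The groups differed in markers of age in spite of their common label. The summed level of 7 genes of oocytes and early embryos was 9.24 to 9.27 with baicalein, 10.83 to 10.98 with DMSO and 5.01 to 5.66 with water on the log2 scale, and *oma-1*, a defining oocyte gene, had a mean under the level of little signal in water alone. The yolk gene *vit-2* had values of 10.5 and 10.3 with baicalein, 10.1 and 10.1 with DMSO and 1.45 and 1.70 with water, whereas 7 of 8 molting genes were lower with DMSO than with water. The summed level of these 8 was 4.92 to 5.20 with baicalein, 7.06 to 7.13 with DMSO and 9.82 to 9.93 with water. With DMSO it was carried by *ptr-2* and *nhr-23*, 4 of the 8 had a mean under little signal, and *ptr-2* was higher with DMSO than with water. The water arrays, labelled as young adults, had yolk genes near little signal, 7 of 7 oocyte and embryo genes under their DMSO and baicalein levels (*mex-5* still at 4.1 and 3.11) and 7 of 8 molting genes above them, and all results against water were measured across that difference. In RNA of whole animals, fewer cells of a type and less RNA per cell cannot be told apart.

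Baicalein was set against DMSO to ask what the flavone changes beyond its solvent, and DMSO against water to ask what the solvent changes. A difference was called where limma gave an adjusted p under 0.05, the adjustment covering the whole array. By this measure 2 of the 68 genes were higher and 16 lower with baicalein than with DMSO, where 1.73% of all probe sets were called higher and 7.03% lower. Against water 20 were higher and 3 lower with DMSO, where 10.9% of all probe sets were called higher and 16.7% lower. Over the 4956 named probe sets, from which the 68 genes come, 6.34% were higher and 26% lower with baicalein than with DMSO. Of the same probe sets, 30.8% were higher and 16.1% lower with DMSO than with water. The shares of the 68 genes called lower with baicalein (23.5%) and higher with DMSO (29.4%) were close to those of the named probe sets. Their shares called higher with baicalein (2.94%) and lower with DMSO (4.41%) were smaller than those of the named probe sets. Of the 47 genes that only the table of baicalein against DMSO named, 15 were higher in DMSO than in water (31.9%) and 3 lower (6.38%), beside 39.0% and 13.6% of the 3210 probe sets that it alone named. That table uses the same DMSO arrays. The labels call the arrays of a group independent trials without saying whether the worms were grown apart, and p-values measure the spread between these samples only, which may be technical.

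**Figure D1:**
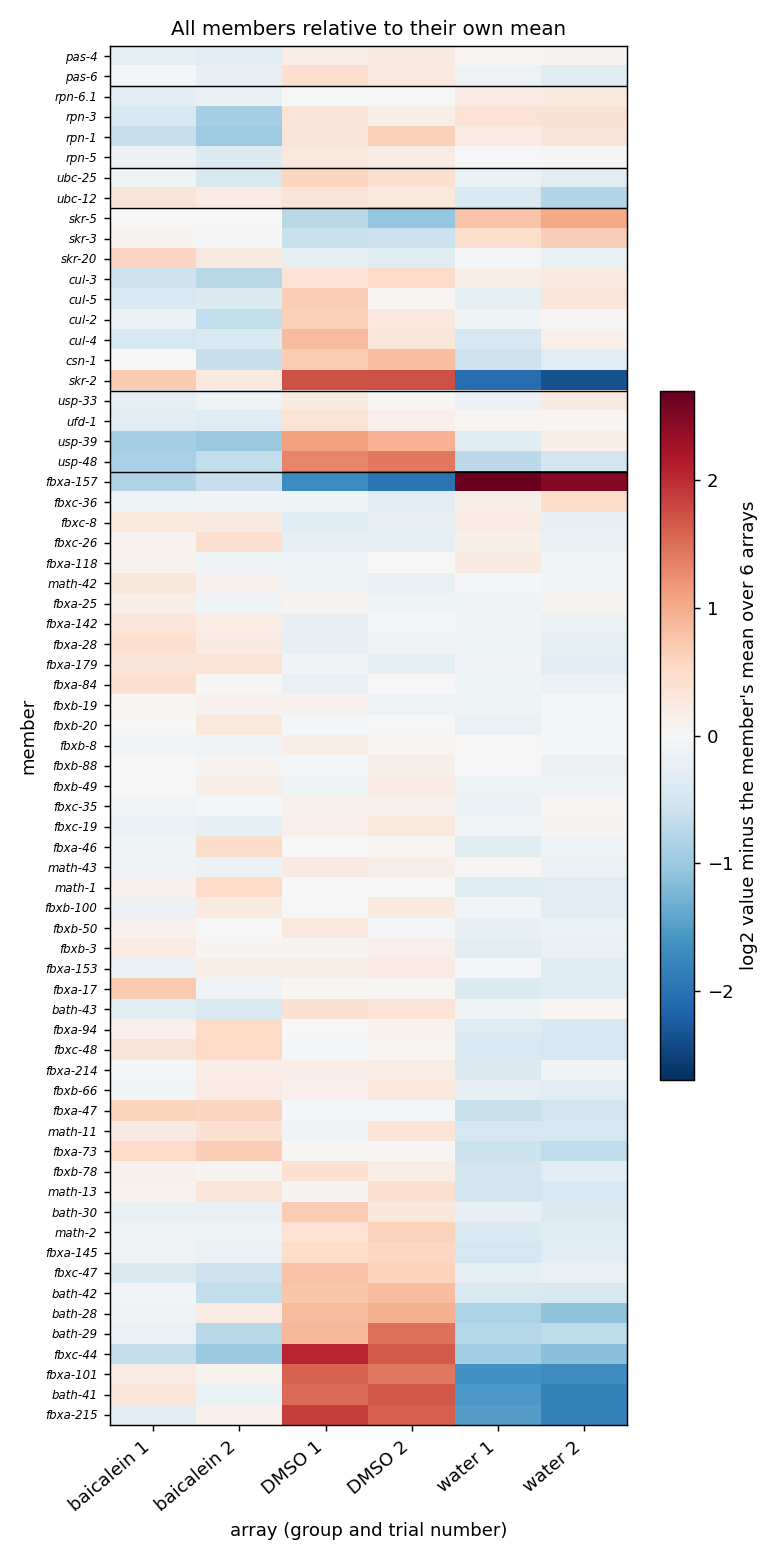
Each row is 1 of the 68 genes and each column 1 array, and colour gives the log2 value minus the gene's own mean over the 6 arrays, with black lines between the groups of genes (20S, 19S, conjugating enzymes, cullin, Skp1 and COP9, ubiquitin proteases and UFD, adaptors). DMSO was the highest of the 3 group means in 40 of the 68 genes and the lowest in 10. These counts were not taken over all probe sets, and both tables that named the genes use the DMSO arrays.

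All 6 proteasome subunits had both baicalein arrays under both DMSO arrays, and *rpn-1* and *rpn-3*, which encode large non-ATPase subunits of the 19S particle, passed the test. All 6 were named by the table of this comparison, so the common direction is a description, and 22.3% of all probe sets had baicalein arrays under both DMSO arrays while 24.1% had them above.

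*rpn-1*, whose product holds ubiquitin receptors and a ubiquitin protease at the base of the 19S particle, had values of 6.76 and 6.41 with baicalein, 7.73 and 8.02 with DMSO and 7.60 and 7.73 with water. The baicalein arrays were the lowest, and the DMSO and water arrays met at 7.73. *rpn-1* was 2.45-fold lower with baicalein than with DMSO (log2 difference −1.29, SE 0.20, adjusted p = 0.0159). *rpn-3*, a subunit of the 19S lid, had values of 5.73 and 5.27 with baicalein, 6.51 and 6.35 with DMSO and 6.56 and 6.57 with water. Baicalein again stood alone, and its difference to DMSO was −0.93 (SE 0.21, adjusted p = 0.0433), a 1.90-fold lower value. In DMSO minus water, the log2 difference was 0.21 (95% interval −0.28 to 0.70) for *rpn-1* and −0.13 (−0.63 to 0.36) for *rpn-3*.

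The other 4 subunits did not pass the test against DMSO. *rpn-5*, a lid subunit, had values of 6.68 and 6.46 with baicalein, 7.10 and 7.04 with DMSO and 6.81 and 6.86 with water (difference to DMSO −0.50, 95% interval −0.91 to −0.09, adjusted p = 0.144). *rpn-6.1*, a lid subunit known in the worm for protecting against proteotoxic stress when overexpressed, had 6.02 and 6.10 with baicalein, 6.30 and 6.30 with DMSO and 6.52 and 6.55 with water, and its difference to DMSO was −0.24 (−0.62 to 0.14). The alpha-ring subunits of the 20S core were the brightest of all the genes here. *pas-4* had 8.42 and 8.35 with baicalein, 8.85 and 8.90 with DMSO and 8.71 and 8.72 with water (difference to DMSO −0.49, −0.87 to −0.11), and *pas-6* had 7.95 and 7.78 with baicalein, 8.45 and 8.25 with DMSO and 7.86 and 7.67 with water (−0.49, −0.93 to −0.06). *pas-6* with DMSO was above water by 0.59 (adjusted p = 0.056), which missed the threshold, and its baicalein and water arrays overlapped.

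The median log2 difference of the 6 subunits was −0.50 for baicalein minus DMSO and 0.18 for DMSO minus water, beside 0.05 and 0.09 over all probe sets and −0.43 and 0.36 over the probe sets named by the table of baicalein against DMSO, which named all 6. Between DMSO and water the DMSO arrays were both above in 3 subunits and both under in 2, where 41.1% of all probe sets had them above and 31.9% under. No subunit passed that test with limma, and 1 had an unadjusted p under 0.05. The calls of *rpn-1* and *rpn-3* against DMSO were lost without either DMSO array (highest adjusted p 0.0925 and 0.211), and that of *rpn-3* also without baicalein array 2 or either water array.

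**Figure D2:**
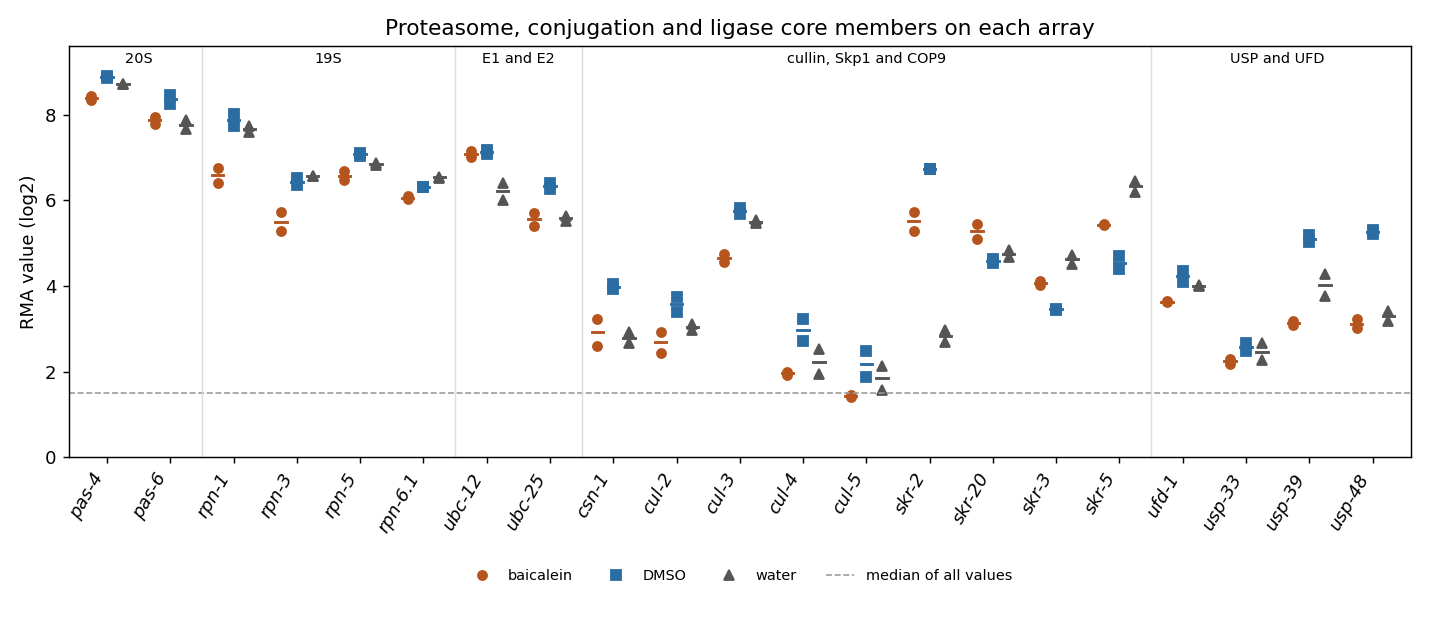
The 21 genes outside the adaptor families are shown along the horizontal axis and their RMA values (log2) on the vertical axis. Points are single arrays (2 per group), short bars are group means and the dashed line is the median of all values, 1.51. The baicalein arrays lie lowest in 5 of the 6 proteasome subunits, all but *pas-6*, and *skr-2* has the widest gap between DMSO and water.

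Both conjugating enzymes were higher in DMSO than in water, and neither passed the test between baicalein and DMSO. *ubc-12*, the E2 enzyme that loads NED-8 onto cullins, had values of 7.16 and 7.02 with baicalein, 7.16 and 7.09 with DMSO and 6.40 and 6.01 with water. The baicalein and DMSO arrays overlapped and lay above both water arrays, by 1.89-fold for DMSO (log2 difference 0.92, SE 0.19, adjusted p = 0.0138) and by 1.84-fold for baicalein (0.88, SE 0.19, adjusted p = 0.0208). Its difference between baicalein and DMSO was −0.04 (95% interval −0.51 to 0.43). *ubc-25*, a ubiquitin-conjugating enzyme, had values of 5.71 and 5.39 with baicalein, 6.40 and 6.26 with DMSO and 5.64 and 5.53 with water. DMSO was the high group, 1.68-fold above water (0.75, SE 0.19, adjusted p = 0.026), and the difference of baicalein to DMSO, −0.78 (SE 0.19), missed the threshold with an adjusted p of 0.0534. The calls of both enzymes between DMSO and water were lost without either DMSO array (highest adjusted p 0.106 for *ubc-12* and 0.157 for *ubc-25*), that of *ubc-12* also without water array 2 and that of *ubc-25* without either water array.

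Among the cullins, *cul-3* was lower with baicalein than with DMSO or water, whereas the 3 other cullins named did not pass either test. *cul-3*, the scaffold that MATH-BTB adaptors bind, had values of 4.74 and 4.56 with baicalein, 5.69 and 5.81 with DMSO and 5.46 and 5.54 with water. It was 2.14-fold lower with baicalein than with DMSO (log2 difference −1.10, SE 0.17, adjusted p = 0.0149), and the difference between DMSO and water was 0.25 (95% interval −0.16 to 0.66). *cul-2*, a scaffold that works with elongin in the worm germ line and early embryo, had 2.93 and 2.44 with baicalein, 3.75 and 3.39 with DMSO and 2.97 and 3.12 with water (difference to DMSO −0.89, SE 0.23, adjusted p = 0.0715). *cul-4*, which restrains DNA replication licensing in the worm, had 1.92 and 2.00 with baicalein, 3.24 and 2.72 with DMSO and 1.94 and 2.52 with water (−1.02, SE 0.27, adjusted p = 0.0711). *cul-5* was near the level of little signal, with 1.40 and 1.45 for baicalein, 2.47 and 1.87 for DMSO and 1.58 and 2.14 for water. In all 4 cullins both baicalein arrays were under both DMSO arrays, as in 22.3% of all probe sets. The table of baicalein against DMSO alone named all 4, so the common direction is a description. In none of them did DMSO differ from water past the threshold. *csn-1*, a subunit of the COP9 signalosome, had 3.23 and 2.61 with baicalein, 3.92 and 4.04 with DMSO and 2.66 and 2.93 with water. It was 2.09-fold lower with baicalein than with DMSO (−1.06, SE 0.25, adjusted p = 0.0476) and 2.27-fold higher in DMSO than in water (1.18, SE 0.25, adjusted p = 0.0125), and its baicalein and water arrays overlapped.

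The Skp1-related genes went opposite ways. *skr-2*, one of the Skp1 copies that bind CUL-1 in the worm, had values of 5.73 and 5.29 with baicalein, 6.74 and 6.74 with DMSO and 2.98 and 2.68 with water. The 3 groups were apart, with DMSO 14.99-fold above water (log2 difference 3.91, SE 0.21, adjusted p = 5.96e-05) and baicalein 2.34-fold under DMSO (−1.23, SE 0.21, adjusted p = 0.0209). *skr-2* has a close copy, *skr-1*, and what part of the signal comes from it is not known here. *skr-5* ran the other way, with 5.45 and 5.41 for baicalein, 4.69 and 4.39 for DMSO and 6.20 and 6.44 for water. It was 3.45-fold lower in DMSO than in water (−1.79, SE 0.19, adjusted p = 0.000804) and 1.86-fold higher with baicalein than with DMSO (0.89, SE 0.19, adjusted p = 0.0375). *skr-3* had 4.12 and 4.01 with baicalein, 3.45 and 3.47 with DMSO and 4.52 and 4.71 with water, which is 2.24-fold lower in DMSO than in water (−1.16, SE 0.17, adjusted p = 0.00291), while its rise of 0.61 with baicalein over DMSO missed the threshold (adjusted p = 0.0801). *skr-20* had 5.45 and 5.11 with baicalein, 4.64 and 4.53 with DMSO and 4.83 and 4.67 with water and passed neither test (baicalein minus DMSO 0.69, adjusted p = 0.0812). *skr-2*, *skr-3* and *skr-5* kept their calls between DMSO and water whichever array was left out, with highest adjusted p-values of 0.00228, 0.0328 and 0.0109. Against DMSO the call of *skr-5* was lost whichever array was left out, those of *cul-3* and *skr-2* without either DMSO or either water array (highest adjusted p 0.0914 and 0.127), and that of *csn-1* without any array but baicalein array 1 (0.211). Between DMSO and water *csn-1* lost its call without either DMSO array or water array 1 (0.0921).

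Of the ubiquitin proteases, 2 of 3 were lower with baicalein than with DMSO, with the largest falls outside the adaptor families. The table of that comparison alone named all 3, and 39.5% of the probe sets that it alone named were lower, beside 7.03% of all probe sets. *usp-48*, a ubiquitin-specific protease, had values of 3.01 and 3.23 with baicalein, 5.22 and 5.31 with DMSO and 3.19 and 3.40 with water. DMSO stood alone, with baicalein 4.41-fold under it (baicalein minus DMSO −2.14, SE 0.18, adjusted p = 0.00533) and DMSO 3.91-fold above water (DMSO minus water 1.97, SE 0.18, adjusted p = 0.00044), and baicalein and water overlapped. *usp-39*, whose mammalian counterpart is a splicing factor with a protease fold and no protease activity, had 3.19 and 3.08 with baicalein, 5.19 and 5.02 with DMSO and 3.76 and 4.28 with water. It was 3.91-fold lower with baicalein than with DMSO (−1.97, SE 0.22, adjusted p = 0.00733) and 2.12-fold higher in DMSO than in water (1.08, SE 0.22, adjusted p = 0.0113).

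*usp-33* and *ufd-1* passed neither test. *ufd-1*, which together with NPL-4 brings ubiquitinated proteins to the CDC-48 segregase, had 3.64 and 3.61 with baicalein, 4.35 and 4.1 with DMSO and 4.01 and 4.01 with water (baicalein minus DMSO −0.59, 95% interval −1.01 to −0.18, adjusted p = 0.0925). *usp-33* had 2.18 and 2.30 with baicalein, 2.67 and 2.47 with DMSO and 2.27 and 2.67 with water (−0.33, −0.82 to 0.16). Without DMSO array 1 the calls of *usp-48* and *usp-39* against DMSO were lost (adjusted p 0.0624 and 0.0755 at the highest), and without DMSO array 2 that of *usp-39* was. Between DMSO and water *usp-48* kept its call whichever array was left out, and *usp-39* lost it without DMSO array 1 or water array 1.

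**Figure D3:**
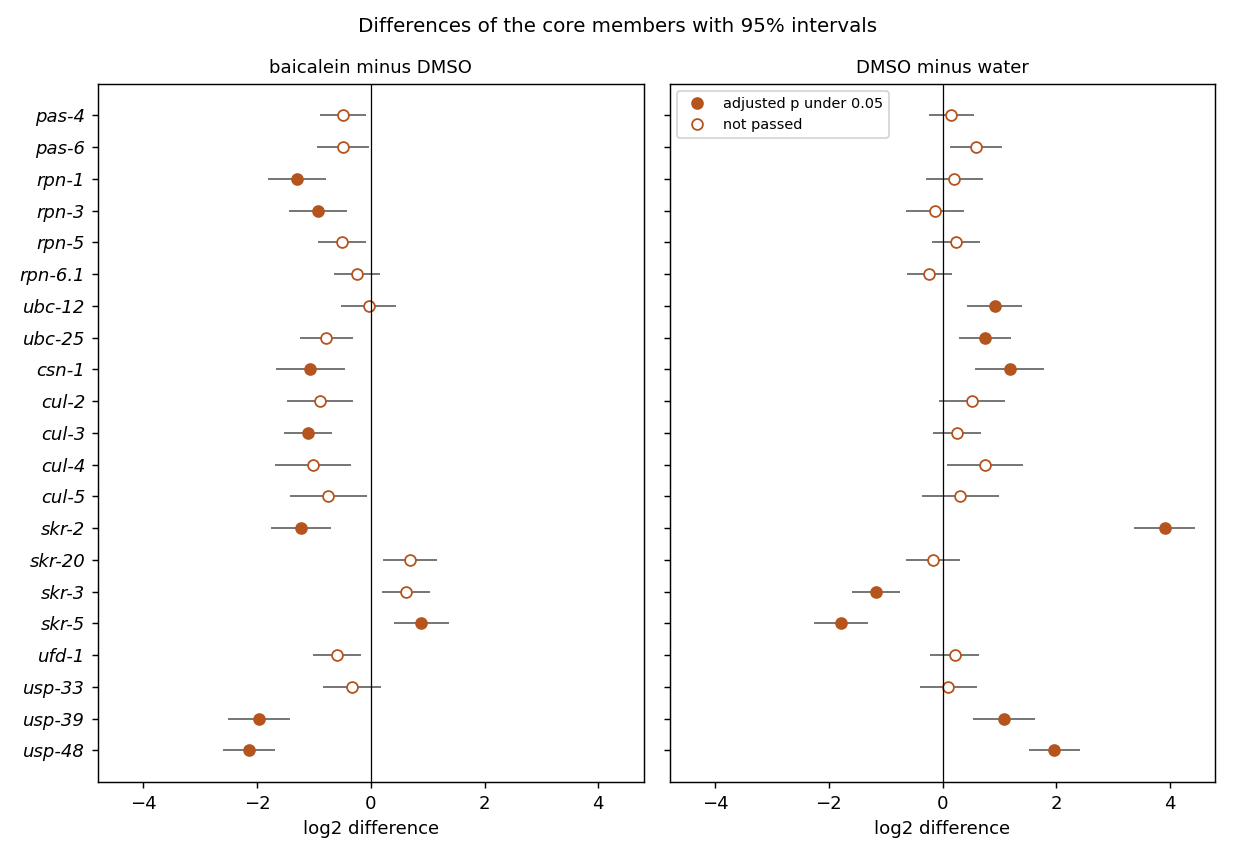
Log2 differences (horizontal axis) of the 21 genes outside the adaptor families, with baicalein minus DMSO on the left and DMSO minus water on the right. Lines are 95% intervals from limma, filled points passed an adjusted p of 0.05 and open points did not; 7 filled points lie under 0 and 1 above it on the left, and 6 above and 2 under 0 on the right.

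Of the 47 adaptors, 22 had all 3 group means at or under the level of little signal, with array values between 0.50 and 1.76. Of these, *bath-30* alone passed between DMSO and water, *math-11*, a pseudogene, alone between baicalein and water, and none between baicalein and DMSO. All are annotated in RefSeq as protein-coding except *fbxa-17*, *fbxa-46*, *fbxc-35*, *math-11*, *math-2* and *math-43*, which are pseudogenes. The remaining 25 adaptors had a group mean above that level, but in 17 of them another group mean was at or under it. Over all 47 adaptors, 1 was higher and 9 lower with baicalein than with DMSO, and 14 were higher and 1 lower with DMSO than with water, counts to be read beside the shares of the named probe sets given above.

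The MATH-BTB genes of the bath family include adaptors of CUL-3, and 5 of the 6 named were lower with baicalein than with DMSO. All 6 were named by the table of that comparison alone. Of the probe sets that it alone named 39.5% were lower, beside 7.03% of all probe sets, so the count is a description. *bath-41* had values of 4.34 and 3.83 with baicalein, 5.54 and 5.69 with DMSO and 2.47 and 2.19 with water. The groups were apart, DMSO 9.76-fold over water (log2 difference 3.29, SE 0.23, adjusted p = 0.000142) and baicalein 2.89-fold under DMSO (−1.53, SE 0.23, adjusted p = 0.0137). *bath-29* had 1.94 and 1.37 with baicalein, 3.02 and 3.60 with DMSO and 1.34 and 1.43 with water. It was 3.14-fold lower with baicalein than with DMSO (−1.65, SE 0.28, adjusted p = 0.0182), and against water, whose mean was at little signal, DMSO was at least 3.47-fold higher (adjusted p = 0.00277). *bath-28* had 2.24 and 2.55 with baicalein, 3.18 and 3.29 with DMSO and 1.48 and 1.23 with water, which is 1.79-fold lower with baicalein than with DMSO (adjusted p = 0.0484) and at least 3.29-fold higher in DMSO than in water (adjusted p = 0.000721). *bath-42*, described in the worm as a CUL-3 partner, had 5.42 and 4.84 with baicalein, 6.25 and 6.32 with DMSO and 5.10 and 5.06 with water. DMSO was again the high group, 2.31-fold over water (1.21, SE 0.23, adjusted p = 0.00825), and baicalein was 2.23-fold under DMSO (−1.15, SE 0.23, adjusted p = 0.0288). *bath-43*, which RefSeq now names *spop-1* after the human adaptor SPOP, had 4.85 and 4.76 with baicalein, 5.56 and 5.53 with DMSO and 5.04 and 5.21 with water, and it was lower with baicalein than with DMSO by 1.67-fold (adjusted p = 0.0442) without a call between DMSO and water (0.42, 95% interval 0.02 to 0.82). *bath-30* had array values of at most 1.76.

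In the F-box families the changes were in few members and reached the largest sizes seen in any of the 68 genes. *fbxc-44* had values of 1.94 and 1.58 with baicalein, 4.64 and 4.24 with DMSO and 1.63 and 1.45 with water. It was seen clearly in DMSO alone, 6.41-fold lower with baicalein than with DMSO (log2 difference −2.68, SE 0.22, adjusted p = 0.00533) and 7.44-fold higher in DMSO than in water (2.89, SE 0.22, adjusted p = 0.00021). *fbxa-215* had 2.39 and 2.81 with baicalein, 4.53 and 4.28 with DMSO and 1.17 and 0.84 with water. It was 3.49-fold lower with baicalein than with DMSO (−1.80, SE 0.23, adjusted p = 0.00929) and at least 7.40-fold higher in DMSO than in water (adjusted p = 0.000125). *fbxa-101* had 3.96 and 3.84 with baicalein, 5.33 and 5.18 with DMSO and 2.12 and 2.04 with water, with 3 groups apart. Baicalein was 2.55-fold under DMSO (−1.35, SE 0.17, adjusted p = 0.00913), and DMSO was 9.03-fold over water (3.18, SE 0.17, adjusted p = 5.12e-05). *fbxc-47* had 1.58 and 1.39 with baicalein, 2.74 and 2.56 with DMSO and 1.68 and 1.74 with water, at least 2.20-fold lower with baicalein than with DMSO (adjusted p = 0.0133) and 1.93-fold higher in DMSO than in water (adjusted p = 0.00758).

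*fbxa-157* was the exception. It had values of 2.92 and 3.12 with baicalein, 2.03 and 1.76 with DMSO and 6.37 and 6.20 with water. The water arrays stood far above the rest, and DMSO was 20.9-fold under water (log2 difference −4.39, SE 0.19, adjusted p = 2.45e-05), while baicalein was 2.18-fold over DMSO (1.12, SE 0.19, adjusted p = 0.0184).

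Adaptors that did not pass had low values and small differences. *fbxa-179*, for instance, had 1.66 and 1.70 with baicalein, 1.23 and 1.07 with DMSO and 1.22 and 1.01 with water (baicalein minus DMSO 0.53, adjusted p = 0.129), and *fbxb-8* had 1.52 and 1.51 with baicalein, 1.78 and 1.64 with DMSO and 1.58 and 1.54 with water (−0.20, adjusted p = 0.596). The other adaptors called higher in DMSO than in water among the 25 were *fbxa-145*, *fbxa-73*, *fbxb-78*, *math-13* and the pseudogene *math-2*, and none of them had a DMSO array above 1.89. Over the 47 adaptors the median log2 difference was −0.03 for baicalein minus DMSO and 0.36 for DMSO minus water, near the −0.08 and 0.36 of all probe sets named in either table. With each array centred on its own median, the median of all probe sets moved to −0.05 and 0.20 and that of the adaptors to −0.12 and 0.47.

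All adaptor calls between baicalein and DMSO were lost without DMSO array 1, and all but that of *fbxc-44* without DMSO array 2, and those of *bath-28*, *bath-29*, *bath-42*, *bath-43* and *fbxa-157* also without either water array. Between DMSO and water, *bath-28*, *bath-29*, *bath-41*, *fbxa-101*, *fbxa-157*, *fbxa-215* and *fbxc-44* kept their calls whichever array was left out, and the other adaptors lost theirs without at least 1 array (for *bath-42*, DMSO array 2 or either water array, highest adjusted p 0.0585).

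**Figure D4:**
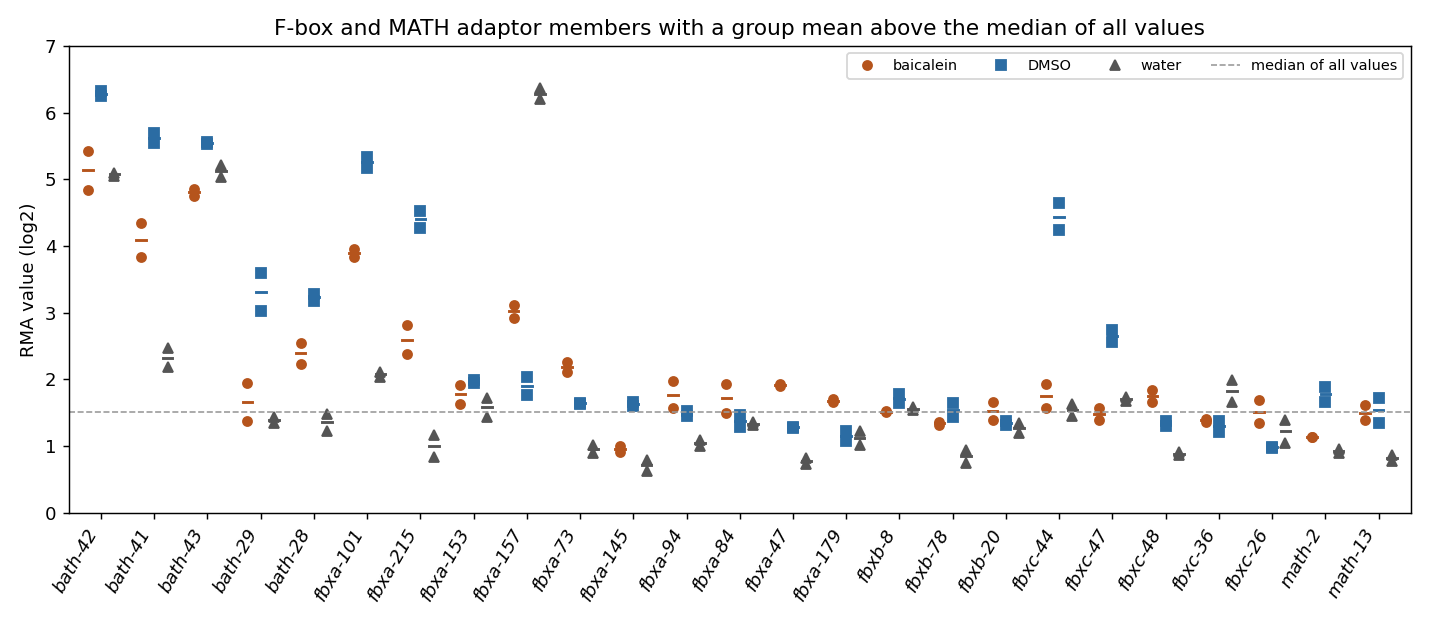
The 25 adaptors with at least 1 group mean above the median of all values are on the horizontal axis, ordered by family and then by DMSO level, and RMA values (log2) on the vertical axis. Points are single arrays (2 per group), short bars are group means and the dashed line is the median of all values, 1.51. The *bath* genes, *fbxa-101*, *fbxa-215*, *fbxc-44* and *fbxc-47* peak with DMSO, *fbxa-157* with water, and most others lie near the dashed line.

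Of the 68 genes, 12 were called both higher in DMSO than in water and lower with baicalein than with DMSO. They were *bath-28*, *bath-29*, *bath-41*, *bath-42*, *fbxa-101*, *fbxa-215*, *fbxc-44*, *fbxc-47*, *usp-39*, *usp-48*, *csn-1* and *skr-2*. The opposite pair of calls was made for *fbxa-157* and *skr-5*. The share of all probe sets with either pair of calls was not counted, so these counts are a description. Since both comparisons share the DMSO arrays, the direct comparison of baicalein with water is given beside them. There, 11 of the 68 genes were higher with baicalein and 6 lower, where 6.79% of all probe sets were called higher and 15.4% lower. Of the 12, the 6 that passed were *skr-2* (6.39-fold higher with baicalein than with water, log2 difference 2.68, SE 0.21, adjusted p = 0.000329), *fbxa-101* (3.54-fold higher), *bath-41* (3.38-fold higher), *fbxa-215* (at least 2.12-fold higher), *bath-28* (at least 1.84-fold higher) and *usp-39* (1.84-fold lower). For *usp-48*, *fbxc-44*, *bath-29*, *bath-42* and *csn-1* the baicalein and water arrays overlapped, with differences between −0.17 and 0.27, and *fbxc-47* had a difference of −0.22 (adjusted p = 0.382). The proteasome subunits *rpn-1* and *rpn-3* were 2.12-fold (−1.08, SE 0.20, adjusted p = 0.0116) and 2.09-fold (−1.06, SE 0.21, adjusted p = 0.0131) lower with baicalein than with water, and *cul-3* was 1.80-fold lower (−0.85, SE 0.17, adjusted p = 0.0143). *fbxa-157* was 9.61-fold lower (−3.27, SE 0.19, adjusted p = 8.39e-05) and *skr-5* 1.86-fold lower (−0.89, SE 0.19, adjusted p = 0.0183). The remaining calls were *ubc-12*, given above, and the dim adaptors *fbxa-47*, *fbxa-73*, *fbxa-94*, *fbxc-48* and *math-11*, all higher with baicalein than with water and with no array above 2.26. Of these adaptors, *fbxc-48* lost its call without either water array and *math-11* also without baicalein array 2. *fbxa-94* lost its call without any array but baicalein array 1. The calls of *rpn-1*, *rpn-3*, *cul-3* and *skr-5* against water were lost without either water array (highest adjusted p 0.0896, 0.0871, 0.11 and 0.139). Those of *ubc-12* and *bath-28* were lost without water array 2 (0.153 and 0.094), that of *usp-39* without baicalein array 2, either DMSO array or water array 2 (highest adjusted p 0.196), and those of *skr-2*, *fbxa-101*, *bath-41*, *fbxa-215*, *fbxa-157*, *fbxa-47* and *fbxa-73* were kept whichever array was left out.

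The number of calls was also taken with each array left out. The group then has 1 array, which is assumed to vary like the other groups, and the number of calls over the whole array moves too. Between baicalein and DMSO that number fell without a DMSO or water array and rose without baicalein array 1. Between DMSO and water it rose without a baicalein array and fell without any other. The counts of the genes here are therefore a description. Without DMSO array 1, none of the 68 genes, and none of the 29317 probe sets, was called between baicalein and DMSO with limma. The smallest adjusted p was then 0.0624, and without adjustment a p under 0.05 was reached by 7 genes with higher and 20 with lower values. Without DMSO array 2 the count was 0 higher and 2 lower (*fbxc-44* and *usp-48*), where 0.0682% of all probe sets were called higher and 1.58% lower, and without either water array 0 higher and 8 lower, while it was 1 higher and 17 lower without baicalein array 1 and 2 higher and 13 lower without baicalein array 2. Between DMSO and water 9 to 22 genes were called higher and 3 lower whichever array was left out.

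**Figure D5:**
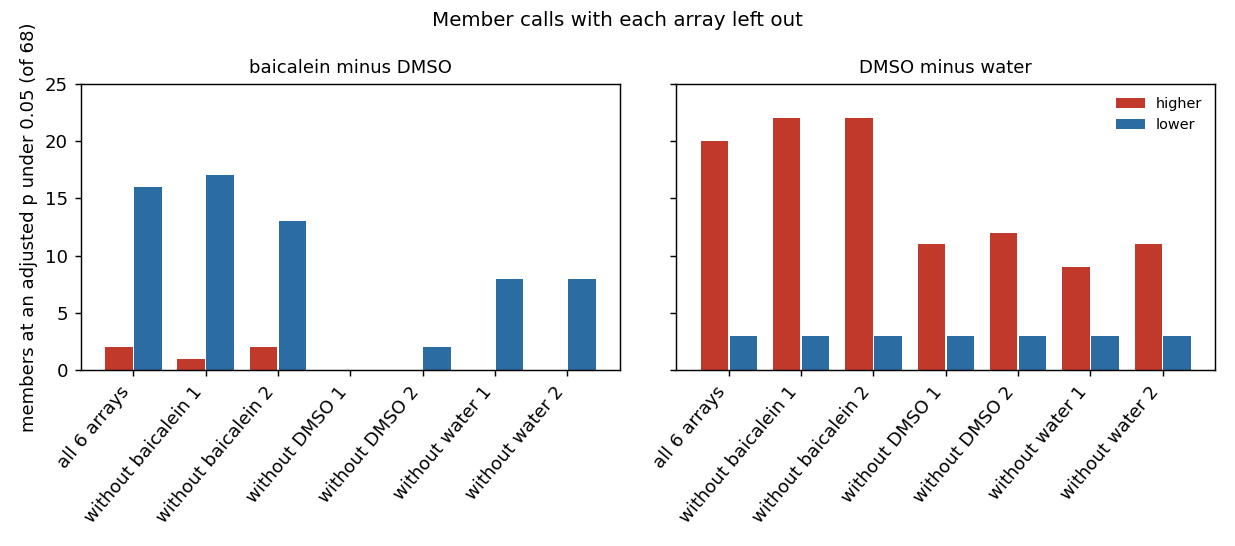
Bars give the number of the 68 genes called higher (red) or lower (blue) at an adjusted p under 0.05, with all 6 arrays and with each array left out in turn, for baicalein minus DMSO (left) and DMSO minus water (right). The 16 lower calls with baicalein fall to 0 without DMSO array 1 and to 2 without DMSO array 2, while the 3 lower calls in DMSO against water stay at 3. A group with an array left out has 1 array.

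Further genes of ubiquitin conjugation, its ligases and its readers were taken from a list of 109 genes without the prefixes above, of which 35 were named, 34 of them by the table of baicalein against DMSO. Of the 35, none was higher and 25 were lower with baicalein than with DMSO, and 23 were higher and none lower in DMSO than in water. All but 1 were chosen by the table of baicalein against DMSO, of whose named probe sets 8.82% were higher and 37.8% lower with baicalein than with DMSO and 38.8% higher and 14.1% lower with DMSO than with water. The median log2 difference of the 35 was −1.17 for baicalein minus DMSO and 0.95 for DMSO minus water, beside −0.43 and 0.36 over those named probe sets. *fzy-1*, the Cdc20 activator of the anaphase-promoting complex, had values of 2.77 and 2.50 with baicalein, 4.62 and 4.50 with DMSO and 2.58 and 2.52 with water. It was 3.79-fold lower with baicalein than with DMSO (adjusted p = 0.0055) and 4.02-fold higher in DMSO than in water (adjusted p = 0.000382). *emb-27*, a subunit of that complex, had 1.57 and 1.52 with baicalein, 3.20 and 3.52 with DMSO and 1.46 and 1.47 with water. *mel-26*, the MATH-BTB adaptor through which CUL-3 removes the katanin MEI-1 after meiosis, had 5.44 and 5.31 with baicalein, 7.42 and 7.06 with DMSO and 5.49 and 5.68 with water, 3.63-fold lower with baicalein than with DMSO (adjusted p = 0.00685). *lin-41*, a TRIM-NHL protein that holds back oocyte maturation, was 3.33-fold lower with baicalein than with DMSO (adjusted p = 0.00685).

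In DMSO minus water the smallest p-values of that list were those of *rnf-1*, *marc-3*, *fzy-1* and *emb-27*. *marc-3*, a membrane-bound RING ligase of the early embryo in the worm, had values of 4.76 and 3.66 with baicalein, 7.12 and 7.42 with DMSO and 2.83 and 2.14 with water, a 27.7-fold higher value in DMSO than in water (log2 difference 4.79, adjusted p = 0.000308). *rnf-1*, a RING-finger protein, had 2.58 and 2.53 with baicalein, 3.70 and 3.91 with DMSO and 1.37 and 1.32 with water. Between baicalein and water 3 genes of the list were higher and 5 lower, among them *rnf-1* (log2 difference 1.21, with water at little signal), *lin-41* (2.39-fold lower), the HECT ligase *hecd-1* (2.39-fold lower) and the elongin *elc-1* (1.65-fold lower).

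Of 7 oocyte and embryo marker genes, 6 were lower with baicalein than with DMSO and 7 higher in DMSO than in water, with median log2 differences of −1.75 and 5.49. Between baicalein and water 7 of 7 markers were higher (median 3.73), and the median of the 35 genes of the list was −0.05. The 16 probe sets of sperm genes had summed levels of 10.4 to 10.6 with baicalein, 9.05 to 9.16 with DMSO and 5.83 to 5.94 with water, so that they were highest with baicalein. Of these, 8 were higher and 2 lower with baicalein than with DMSO. All 7 oocyte and embryo genes and all 16 sperm probe sets were named by the table of baicalein against DMSO. Of its named probe sets, 8.82% were higher and 37.8% lower with baicalein than with DMSO. With DMSO, 38.8% of them were higher and 14.1% lower than with water. The 8 molting genes had a median log2 difference of 0.19 for baicalein minus DMSO and −4.33 for DMSO minus water. The part of these cells and of the molt in the values of the ubiquitin and proteasome genes was not tested.

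Some of the 68 genes lie close together in the genome. In RefSeq, *bath-28* and *bath-30* are adjacent, and *bath-29* lies 2 genes from *bath-30* and 3 from *bath-28*. *bath-28* and *bath-29* had like differences between DMSO and water, 1.88 and 1.92, while that of *bath-30* was 0.81. For baicalein minus DMSO the differences were −0.84 for *bath-28*, −1.65 for *bath-29* and −0.70 for *bath-30*. *skr-3* and *fbxa-142*, with 3 genes between them, differed by −1.16 and 0.01 in the same comparison. In all, 9 pairs had at most 5 genes between them.

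Among 4950 other named probe sets, the level most like the mean of the 6 proteasome subunits over the 6 arrays was that of T07A9.14 (Pearson's r = 0.9991), followed by W08E12.7 (0.9987), *ssl-1* (0.9980), *vps-33.1* (0.9970) and *npp-12* (0.9961). These 5 were each lower with baicalein than with DMSO, by 1.31 to 2.15 on the log2 scale. With 6 arrays that form 3 groups, many genes follow a like course, and the correlation is a description. The segregase *cdc-48.1*, which draws ubiquitinated proteins apart for the proteasome, came next (0.9958) and had 7.34 and 7.10 with baicalein, 8.11 and 7.99 with DMSO and 7.90 and 7.91 with water.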

How the data were processed

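The deposited matrix holds log2 values of 29317 probe sets on 6 arrays, 2 per group. They are described as made with RMA (background correction, log2 transformation and quantile normalization) in Affymetrix Expression Console, but their upper quartiles differ between arrays. Version and genome build are not given in the sources used here. The methods describe 3 independent samples, and 2 arrays per group were used here. Gene symbols came from the deposited tables of 3619 and 1982 entries, 113 of them with shifted cells; the authors' p-values and fold changes in them were not used. Of the 68 genes, 54 were matched to RefSeq by accession and 14 by symbol.

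The 3 groups were fitted together on all 6 arrays with limma 3.58.1 in R 4.3.3, which moderates the variances (3 residual and 3.51 prior degrees of freedom). The Benjamini-Hochberg adjustment ran over the whole array without a filter, and calls needed an adjusted p under 0.05. The number of arrays limits the precision. Where a group mean was at or under 1.51, the median of all values, such means were set to that level and the fold is a lower bound. Same-numbered arrays did not deviate together (r between −0.071 and 0.163), so trials were not paired. The script was tested on simulated data. Tables were read with Python 3.11.15 and pandas 2.3.3.

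Values are given for called genes and for at least 2 per class that did not pass, for up to 6 adaptors per direction by size, and for up to 4 further pathway genes per comparison by p. The genes, lists and tests were chosen with earlier results of these data known.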

Additional observations from a re-analysis of the deposited data

How the results depend on the processing

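No called gene changed sign under any alternative, over 58 pairs of gene and comparison. Most alternatives could not have changed it. The variance trend, both groups alone, the replicate block, the analysis of variance, the unadjusted p and the dim filter keep the same group means. Leaving out an array cannot reverse a gene whose arrays do not overlap between the groups. For such genes only the other scalings could have reversed a sign. Genes that had not passed did change sign under each of the other scalings, with centred arrays only adaptors. Outside the adaptors, cyclic loess changed the sign of *ubc-12* between baicalein and DMSO. Between baicalein and water it changed *ubc-25*, *ufd-1*, *usp-33*, *usp-48*, *cul-2* and *cul-4*. Among those that changed sign with quantile normalization applied again were *ufd-1* between baicalein and DMSO, and *usp-33*, *usp-48*, *cul-2*, *cul-4* and *skr-3* between baicalein and water. Calls between baicalein and DMSO (2 higher and 16 lower of 68 genes) became 0 and 8 with the arrays of both groups alone, 11 and 28 with the methods' analysis of variance without adjustment, 0 and 0 after Benjamini-Hochberg, and 11 and 28 at an unadjusted p from limma. In the same order, the shares of all probe sets were 0.45% and 3.57%, 6.85% and 10.3%, 0% and 0.00341%, and 7.78% and 13.2%. The whole array moved too, so the counts are a description. The 2 higher calls became 1 with a variance trend, with arrays centred on their medians or with a replicate block, 5 with quantile normalization applied again and 4 with cyclic loess. Of all probe sets, 1.91%, 0.986%, 1.43%, 4.35% and 4.79% were then higher. With the replicate block 12 genes were lower, without *rpn-3*, *bath-28*, *bath-43* and *csn-1*, where 6.62% of all probe sets were lower. *skr-5* was then no longer called higher, nor *fbxa-94* between baicalein and water. Leaving out 1 array gave 0 to 2 higher and 0 to 17 lower calls.

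Calls between DMSO and water (20 higher, 3 lower) became 12 higher after Benjamini-Hochberg of the analysis of variance and 5 lower without adjustment. Of all probe sets, 5.28% and 17.8% were then called. Leaving out 1 array gave 9 to 22 higher calls. Calls between baicalein and water (11 higher, 6 lower) became 19 and 11 with the analysis of variance without adjustment, 5 higher after Benjamini-Hochberg, 18 higher at an unadjusted p from limma and 3 lower with quantile normalization. The shares of all probe sets were 13% and 17.1%, 2.82%, 15.2% and 10.6%. Leaving out 1 array gave 6 to 14 higher and 1 to 6 lower.

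The median of the proteasome subunits, −0.495 for baicalein minus DMSO, was −0.587 with centred arrays, −0.704 with quantile normalization and −0.661 with cyclic loess, and −0.591 to −0.428 with 1 array left out. For DMSO minus water, 0.184 became 0.296, 0.233 and 0.240 under those scalings, and 0.098 to 0.211 with 1 array left out. For baicalein minus water, −0.401 became −0.381 with centred arrays. The adaptor median, −0.031 for baicalein minus DMSO, became −0.123, −0.084 and −0.095 under those scalings, −0.640 without dim probe sets and −0.116 for genes named by that table, and −0.094 to 0.006 with 1 array left out. For DMSO minus water, 0.360 became 0.473, 0.258 and 0.247 under those scalings, 0.714 without dim probe sets, 0.398 for genes named by that table and 0.211 for the others, and 0.337 to 0.401 with 1 array left out. For baicalein minus water, 0.270 became 0.205 with quantile normalization and 0.201 with cyclic loess, and 0.284 to 0.315 with 1 array left out. With group means raised to the background, an alternative added after seeing the data, the last 2 medians were 0.000. The cause of these changes was not tested. A single probe set per gene could not be tried, since every gene had 1. All 3 group means were at or under the background in 22 of the 47 adaptors and some of them in another 17.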
